A study of Homo sapiens with 12 samples.

Results

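The dark, never irradiated HaCaT cultures of a blue light study were compared between their second and first harvest. HaCaT is a spontaneously immortalized line of human skin keratinocytes, wild type by label and grown in medium with fetal bovine serum. The later harvest, dark_14, is the control matched to 14 irradiations, and the earlier one, dark_3, is the control matched to 3. Each has 2 libraries, lettered a and b, so 4 of the 12 libraries entered the comparison. The irradiated cultures, blue_14 and blue_3, serve beside it because they went through the same step of culture and share no library with it. They received 408 nm light at 50 J/cm2 and 4.6 mW/cm2 in saline, 3 sessions a week. The remaining libraries, dark_42 and blue_42, entered the fit to share its estimate of spread. Confluence, passage number and handling of the dark plates are not given in the labels, so time in culture cannot be told apart from anything else that differed between the harvests. Whether a and b come from separate cultures is not stated, so the p-values speak for the spread between libraries, which may be technical.

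Keratinocytes in a monolayer divide while attached to the plate and start to differentiate as they crowd. Along that path they leave the cell cycle, change their keratins and build cornified envelope proteins such as involucrin. Epithelial cells also carry a built-in defence programme. NF-kappaB and its cofactors drive secreted antimicrobial and acute phase proteins, interferon signalling drives antiviral genes through a promoter element called the ISRE, and CIITA switches on MHC class II genes.

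RNA was read as tags near the 3' end of transcripts, and levels are given as CPM, the counts of a gene scaled to a common library total. Totals were 3561392 and 7950222 counts in dark_14 a and b, against 6452030 and 7027034 counts in dark_3 a and b. At these depths 3 counts equal 0.859 and 0.383 CPM in dark_14 and 0.476 and 0.432 CPM in dark_3. Mitochondrial transcripts took 16.1% and 15% of counts in dark_14, against 14.5% and 13.7% in dark_3. The labelled cell type held at both harvests. The 20 marker genes fixed for these cells summed to 10390 and 10260 CPM in dark_14 and to 10240 and 10420 CPM in dark_3, and none was at 0.

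Transcripts of neurons stood out in dark_14 and are described first, apart from the keratinocyte genes. SYT1, which encodes the calcium sensor of synaptic vesicles, had 23.5 and 17.8 CPM in dark_14, against 2.06 and 2.16 CPM in dark_3. Its log2 difference was 3.24 ± 0.31 (SE), with an adjusted p of 2.07e-06 by edgeR's quasi-likelihood test. In the irradiated series it showed no such step, with 7.76 and 8.12 CPM in blue_14 and 6.76 and 11.7 CPM in blue_3. CAMK2A, a kinase of excitatory synapses, had 37.5 and 23.8 CPM in dark_14, against 4.76 and 6.19 CPM in dark_3. NRGN, the postsynaptic protein neurogranin, had 24.1 and 27.3 CPM in dark_14, against 9.83 and 8.07 CPM in dark_3. All 3 were called higher and kept the call in each of the 12 fits that left out 1 library. In bulk RNA a change in the number of cells of a type cannot be told apart from a change in RNA per cell.

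Of 50 listed neuronal genes 43 passed the filter on low counts, which high levels in dark_14 help a gene to pass. Of these 29 were called higher and 2 lower, STMN3 and CNTN1, beside 8.11% called higher and 4.61% called lower among all 12878 genes tested. Their median log2 difference was 2.18. The same genes had a median of -0.149 in blue_14 over blue_3, where none was called higher. The higher count was 18 without dark_14 a, 17 without dark_14 b, 12 without dark_3 a and 17 without dark_3 b. Part of the list is also read in keratinocytes: VSNL1 had 81.9 and 94 CPM in dark_14, against 73.4 and 83.1 CPM in dark_3 (adjusted p = 0.384 by edgeR). The 34 members with a mean under 2 CPM in dark_42 give a cleaner reading, and their sum was 121 and 108 CPM in dark_14, against 17.9 and 29.7 CPM in dark_3. It stood at 56.3 and 40.6 CPM in blue_14, against 49.1 and 76.7 CPM in blue_3. Genes of glia moved with them. GFAP, the filament protein of astrocytes, had 5.16 and 8.3 CPM in dark_14, against 0 and 0.576 CPM in dark_3. MOBP, a gene of myelin, had 4.58 and 7.03 CPM in dark_14, against 0.159 and 0.432 CPM in dark_3. Of the 12 glial genes tested 8 were called higher and 1 lower, with a median of 1.44; the higher count was 6 without dark_14 a, 5 without dark_14 b or dark_3 b and 4 without dark_3 a. The part of this RNA in the other results was not tested. The covariate reported below cannot decide it, because the covariate itself differed between dark_14 and dark_3.

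Haemoglobin transcripts were high in 1 of the dark_14 libraries. HBB, adult beta globin at chromosome 11, 5225464 to 5229395 (GRCh38), had 4.3 and 28.7 CPM in dark_14 a and b, against 0.634 and 0.72 CPM in dark_3. It was called with a log2 difference of 4.72 ± 1.10 and an adjusted p of 0.0357 by edgeR, and the call was lost in 8 of the 12 fits that left out a library. HBA2, an alpha globin gene, had 0.859 and 10.1 CPM in dark_14, against 0 and 0.864 CPM in dark_3. HBA1, its near-identical copy, had 0 and 5.24 CPM in dark_14, against 0.317 and 0.288 CPM in dark_3. Reads of these copies cannot be assigned safely to one of them. The other 12 listed erythroid genes were at 0 in all 4 dark libraries except AHSP, at 0.128 CPM in dark_14 b. Marker genes of leukocytes were scarce, with sums of 6.87 and 9.07 CPM in dark_14, against 4.28 and 5.19 CPM in dark_3. Fibroblast markers summed to 111 and 83 CPM in dark_14, against 51.1 and 53.4 CPM in dark_3. Most of that sum was FBLN1, a matrix gene also read in all other libraries, at 91.9 and 66.6 CPM in dark_14 and 45.2 and 45.5 CPM in dark_3. Of the 5 fibroblast markers tested 4 were called higher, THY1, DCN, COL1A1 and FBLN1. THY1 is also a gene of neurons and 1 of the 34 neuron-restricted members. The count was 1 without dark_14 a or dark_3 a, 2 without dark_3 b and 0 with a neuron-restricted covariate described below.

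**Figure D1:**
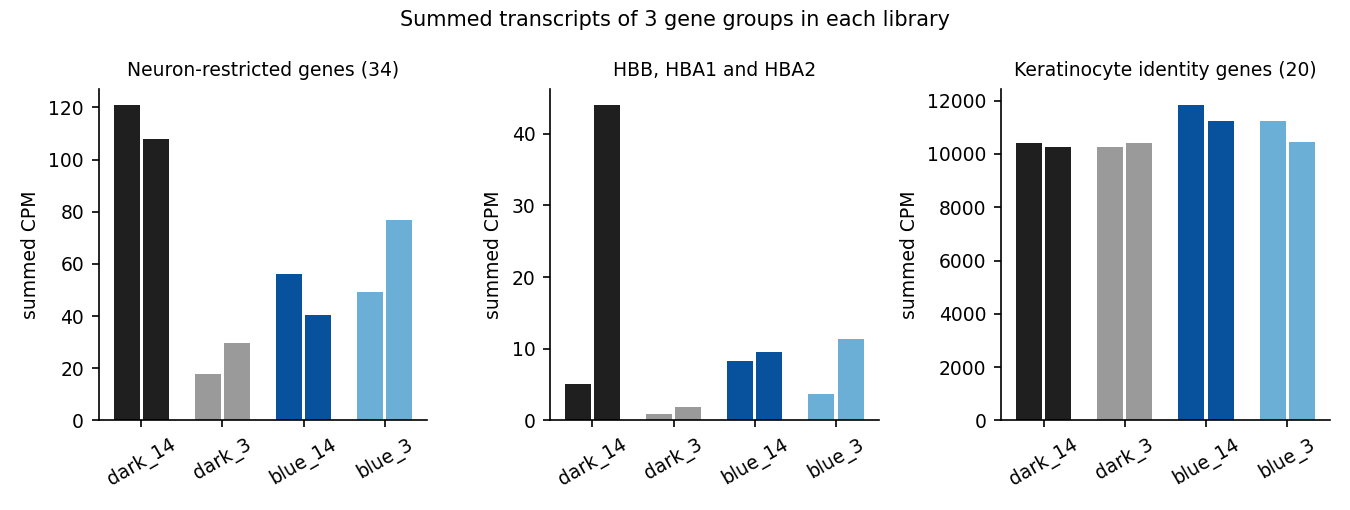
Bars give the summed CPM of the 34 neuron-restricted genes, of the 3 globin genes and of the 20 keratinocyte identity genes in each library, with library a left of b in each group. The neuron-restricted sum is 121 and 108 CPM in dark_14 and 17.9 and 29.7 CPM in dark_3, while the keratinocyte sum lies between 10240 and 10420 CPM in these 4 libraries.

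Across all genes, 1638 of 12878 tested were called at an adjusted p under 0.05, which is 12.7%. Of these 1044 were higher (8.11%) and 594 lower (4.61%) in dark_14. The changes upward were also larger: 462 of the higher genes and 34 of the lower ones passed 2-fold. Both dark_14 libraries lay beyond both dark_3 libraries for 8089 genes, 62.8% of all tested, and for 1637 of the 1638 called. The shares of 8.11% higher and 4.61% lower are those to set beside each list count below, also where they are not repeated. The median log2 difference of all tested genes was 0.0187. In blue_14 over blue_3, 801 genes were called (6.22%). Of the 1638 genes called in the dark cultures 1466 had the same sign there (89.5%), against 68.8% of all tested genes, and 428 were called in both steps, 426 of them with the same sign. The share with the same sign was 87.4% of the genes called higher and 93.3% of those called lower. Because a harvest number is shared by dark and irradiated cultures, this does not separate culture time from other features of a harvest.

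The dark_14 libraries differed from each other by more than the dark_3 libraries, with a variance of 4.79 times that of counting error in dark_14 and 1.61 times in dark_3 (chi-square over its degrees of freedom). The count of calls rested most on dark_14 a and the dark_3 pair: it was 421 without dark_14 a, 1344 without dark_14 b, 336 without dark_3 a and 406 without dark_3 b. With the summed neuron-restricted genes as a covariate 408 genes were called, 294 of them among the 1638, and 1592 of the 1638 kept their sign. That sum itself differed between dark_14 and dark_3, so this fit cannot measure the part of neuronal RNA in the other results. In it some list medians grew, as for mucosal defence (1.66 to 2.94) and G1/S genes (-0.417 to -0.692). Others shrank, as for interferon-stimulated genes (0.721 to 0.629). Only some of the 174 named genes that were called kept the call in all fits that left out 1 library. Many of these are pointed out in their paragraphs. DHRS9, PSMB9, B2M, HLA-DRA, SCGB1A1, MYH10 and STMN3 kept it too, without a remark there.

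**Figure D2:**
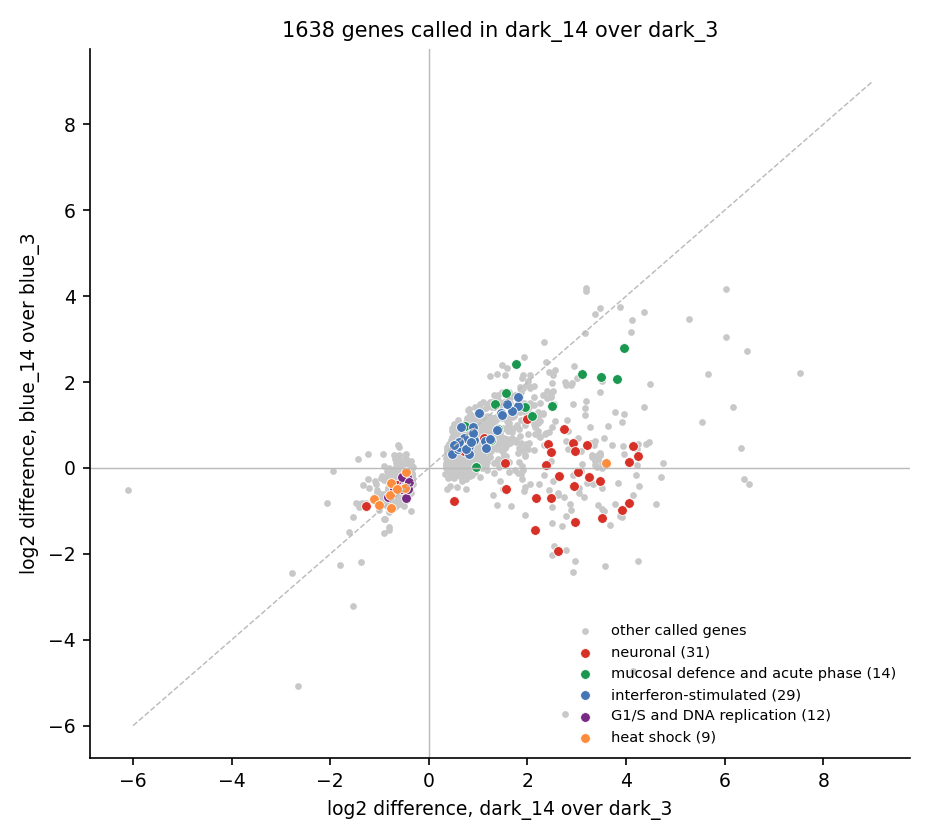
Each point is 1 of the 1638 genes called between dark_14 and dark_3, with its log2 difference in the dark cultures on the x axis and in blue_14 over blue_3 on the y axis; the dashed line marks equal differences. Most neuronal genes lie to the right near or under the zero line of the y axis, but STMN3 and CNTN1, called lower, lie to the left. Mucosal defence, interferon-stimulated, G1/S and most heat shock genes have the same sign on both axes.

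The keratinocyte changes were led by secreted defence proteins of epithelia. LCN2, lipocalin 2, which starves bacteria of iron, had 817 and 469 CPM in dark_14, against 43.8 and 46.7 CPM in dark_3. This is a log2 difference of 3.82 ± 0.47, or 14.2-fold, with an adjusted p of 0.00415 by edgeR. The gene lies on chromosome 9 at 128149071 to 128153455 (GRCh38, plus strand). SAA1, an acute phase serum amyloid, had 195 and 134 CPM in dark_14, against 15.4 and 13.5 CPM in dark_3. C3, the central complement protein, had 196 and 121 CPM in dark_14, against 17.9 and 18.4 CPM in dark_3. PI3, the elastase inhibitor elafin, had 40.1 and 18.8 CPM in dark_14, against 2.06 and 1.15 CPM in dark_3. In all 4 genes the dark_14 libraries lay well above both dark_3 libraries, and library a was the higher of the 2.

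The alarmins S100A8 and S100A9, which form calprotectin, rose by 3.47 ± 0.75 and 3.37 ± 0.71 on the log2 scale, with adjusted p-values of 0.0321 and 0.0301 by edgeR. S100A9 had 299 and 109 CPM in dark_14, against 19 and 19.6 CPM in dark_3. SLPI, a protease inhibitor of mucosal fluids, had 130 and 90.5 CPM in dark_14, against 42.2 and 40 CPM in dark_3 (log2 difference 1.40 ± 0.17, adjusted p = 0.000109 by edgeR). S100P, MUC4 and MUC1, a calcium-binding protein and 2 membrane mucins, rose by 2.50, 2.09 and 1.57 on the log2 scale. PIGR, the receptor that carries polymeric antibodies across epithelia, had 35.5 and 10.1 CPM in dark_14 and no count in dark_3. Its mean was at least 101-fold higher than the 0.226 CPM that 3 counts over both dark_3 libraries would give, but it was not called (adjusted p = 0.116 by edgeR). Of 20 tested genes of the mucosal defence and acute phase list 14 were called higher and none lower, with a median of 1.66, beside 8.11% called higher among all genes. In blue_14 over blue_3, 10 were called higher with a median of 1.43. Of 12 tested genes of the list of wound keratins and alarmins, which shares LCN2 with it, 4 were higher (PI3, LCN2, S100A8 and S100A9) and 1 lower (KRT6A).

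Further genes with large differences in the dark cultures were SAA2, DHRS9, a retinol dehydrogenase, and NEURL3, a ubiquitin ligase. Others were CCL17, a chemokine that attracts T cells, CTSS, the lysosomal protease cathepsin S, and GSDMB, a gasdermin. All were chosen for having the same sign in blue_14 over blue_3. In that step SAA2 and CCL17 were called (adjusted p = 0.0336 and 0.000486 by edgeR). DHRS9, NEURL3, CTSS and GSDMB were not called there (adjusted p = 0.073, 0.0817, 0.0508 and 0.133 by edgeR). CCL17 had 11.7 and 8.3 CPM in dark_14, against 0.951 and 1.15 CPM in dark_3 (adjusted p = 2.72e-05 by edgeR). FRMD3, a gene with a FERM domain, had 41.5 and 31.6 CPM in dark_14, against 2.38 and 1.73 CPM in dark_3. TNFSF14, the TNF family ligand LIGHT, had 4.87 and 2.94 CPM in dark_14 and no count in dark_3, at least 17.3-fold higher than the floor of 0.226 CPM. FAM107A and BCAS1, best known from brain, rose by 3.36 and 2.83 on the log2 scale but differed by only 0.54 and 0.43 in blue_14 over blue_3. Their means in dark_42 were 0.773 and 3.37 CPM, low beside their dark_14 means of 10.7 and 20.8 CPM. SAA1 and CCL17 kept their calls in every fit that left out a library, as did FAM107A and BCAS1. LCN2 lost its call without dark_3 a, and C3, PI3, FRMD3, CTSS and GSDMB lost theirs without either dark_3 library. Those of S100A8 and S100A9 were lost without either dark_3 library, either blue_3 library or dark_14 a. The mucosal defence count was 3 without either dark_3 library, 8 without dark_14 a and 7 with the neuron-restricted covariate; the 4 higher alarmins became 2 without dark_14 a, 0 without dark_3 a and 1 without dark_3 b.

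**Figure D3:**
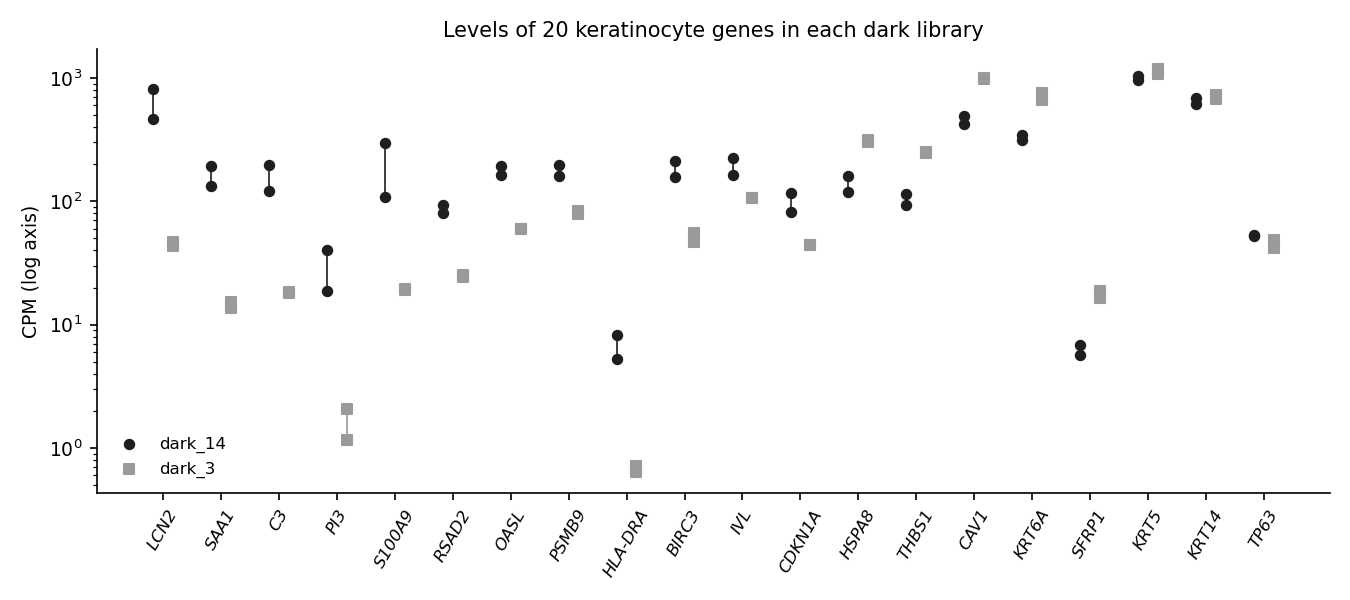
Points give the CPM of 20 named genes on a log axis in each of the 2 dark_14 libraries (black circles) and the 2 dark_3 libraries (grey squares), joined by a line within a group. From LCN2 to CDKN1A the dark_14 pair lies above the dark_3 pair, from HSPA8 to SFRP1 it lies below, and for KRT5, KRT14 and TP63 the pairs are close.

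Most of the listed interferon-stimulated genes rose, at modest size. RSAD2, the antiviral enzyme viperin, had 92.5 and 81 CPM in dark_14, against 24.3 and 25.2 CPM in dark_3. Its log2 difference was 1.80 ± 0.15 (adjusted p = 7.54e-07 by edgeR). OASL, a relative of the OAS antiviral sensors, had 165 and 192 CPM in dark_14, against 59.9 and 59.5 CPM in dark_3, and its adjusted p of 2.44e-07 by edgeR was the smallest of all genes. CMPK2, the neighbour of RSAD2 on chromosome 2, had 30.4 and 22.9 CPM in dark_14, against 8.4 and 7.78 CPM in dark_3. The sensor gene RIGI rose by 0.91 and the ISG nuclease gene ISG20 by 1.01 on the log2 scale. Of 45 listed genes, all tested, 29 were called higher and none lower, with a median of 0.721, and in blue_14 over blue_3 the counts were 22 and 0 with a median of 0.614.

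The group did not move as one. IFIT1, an RNA-binding antiviral protein, had 41 and 49.7 CPM in dark_14, against 47.4 and 48.2 CPM in dark_3. ISG15, a ubiquitin-like modifier, had 72.7 and 89.4 CPM in dark_14, against 59.5 and 58.8 CPM in dark_3 (adjusted p = 0.11 by edgeR). IRF1, a factor on no interferon list here, had 324 and 248 CPM in dark_14, against 118 and 122 CPM in dark_3, and rose by 1.25 ± 0.20 on the log2 scale (adjusted p = 0.00235 by edgeR); it was singled out after its values were seen. RSAD2, OASL and CMPK2 kept their calls in every fit that left out a library. The count of 29 fell to 18 without dark_14 a, 15 without dark_3 a, 16 without dark_3 b and 9 with the neuron-restricted covariate.

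The promoter windows of these genes, 250 bases before to 50 after the annotated start, were searched on both strands for the ISRE core GAAANNGAA. It was present in 17 of the 25 called members with an entry in the RefSeq table (68%), in 8.11% of all 35116 promoters and in 6.54% of those of tested genes. Of all genes called higher 11.1% held it, and of those called lower 5.95%. Among the 35 tested members with an entry, called or not, the share was 71.4%. The match is a description of letters, not a site. The 4 windows below are from RefSeq on GRCh38.p14, 5′ to 3′ on the gene's strand, with each match in capitals; IFI27, RSAD2 and DDX60 are the called members with a match that rose most, and IFITM3, an entry inhibitor in membranes, is an abundant one.
IFI27 (chr14:94110486-94110785, plus strand): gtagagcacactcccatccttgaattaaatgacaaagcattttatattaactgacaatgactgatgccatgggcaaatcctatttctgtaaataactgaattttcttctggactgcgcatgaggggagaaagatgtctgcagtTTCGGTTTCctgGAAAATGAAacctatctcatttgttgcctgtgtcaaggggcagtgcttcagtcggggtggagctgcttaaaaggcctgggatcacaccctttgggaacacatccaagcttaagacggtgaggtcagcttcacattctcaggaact
RSAD2 (chr2:6865635-6865934, plus strand): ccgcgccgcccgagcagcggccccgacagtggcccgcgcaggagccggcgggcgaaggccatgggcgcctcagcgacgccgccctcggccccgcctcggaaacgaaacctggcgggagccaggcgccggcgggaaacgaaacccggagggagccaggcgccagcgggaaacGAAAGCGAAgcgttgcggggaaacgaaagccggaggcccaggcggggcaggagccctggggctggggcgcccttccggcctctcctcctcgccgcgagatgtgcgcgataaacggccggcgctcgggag
DDX60 (chr4:168318703-168319002, minus strand): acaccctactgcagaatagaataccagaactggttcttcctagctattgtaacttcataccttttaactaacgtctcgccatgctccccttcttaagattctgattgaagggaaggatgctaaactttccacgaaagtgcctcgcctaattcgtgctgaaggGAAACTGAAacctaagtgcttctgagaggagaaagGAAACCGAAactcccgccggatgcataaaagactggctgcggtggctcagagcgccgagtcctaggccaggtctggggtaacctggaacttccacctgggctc
IFITM3 (chr11:320811-321110, minus strand): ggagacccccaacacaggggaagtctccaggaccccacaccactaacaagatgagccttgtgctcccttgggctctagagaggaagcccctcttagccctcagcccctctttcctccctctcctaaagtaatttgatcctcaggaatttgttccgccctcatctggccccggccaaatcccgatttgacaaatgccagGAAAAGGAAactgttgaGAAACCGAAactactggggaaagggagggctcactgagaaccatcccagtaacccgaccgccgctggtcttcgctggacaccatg
In DDX60, an antiviral helicase, the matches began 88 and 53 bases before the start, in RSAD2 79 bases before it, in IFI27 107 and 95 bases before it and in IFITM3 52 and 35 bases before it. DDX60 and IFITM3 rose by 1.38 and 0.61 on the log2 scale, and IFI27 and RSAD2 both by 1.80.

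Several genes of antigen presentation rose. PSMB9, a catalytic subunit of the immunoproteasome, had 198 and 161 CPM in dark_14, against 83.7 and 79.1 CPM in dark_3 (log2 difference 1.13 ± 0.14, adjusted p = 5e-05 by edgeR). B2M, the light chain of MHC class I, had 2910 and 2510 CPM in dark_14, against 1730 and 1615 CPM in dark_3. HLA-B had 430 and 316 CPM in dark_14, against 218 and 205 CPM in dark_3, although reads of HLA genes are hard to assign between copies. Of 16 tested class I genes 10 were called higher and none lower, with a median of 0.673. That count was 5 without dark_14 a or dark_3 b and 6 without dark_3 a.

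MHC class II genes began near the floor. HLA-DRA, the class II alpha chain, had 8.31 and 5.24 CPM in dark_14, against 0.634 and 0.72 CPM in dark_3 (log2 difference 3.19 ± 0.58, adjusted p = 0.00249 by edgeR). It also rose in the irradiated step, where its mean was 17.1 CPM in blue_14 and 0.868 CPM in blue_3. CIITA, the master switch of these genes, had 6.59 and 7.28 CPM in dark_14, against 2.06 and 2.59 CPM in dark_3. HLA-DRB1, HLA-DMA and HLA-DQB1 were the other 3 members called, all higher, at 3.20, 2.01 and 1.23 on the log2 scale. CD74, the invariant chain, had 24.3 and 8.94 CPM in dark_14, against 0.476 and 0.432 CPM in dark_3, and was not called (adjusted p = 0.0978 by edgeR). Of 12 listed genes 10 passed the filter, which high levels in the later cultures help a gene to pass, and all 10 lay above 0. The 5 calls became 3 without dark_14 a or dark_3 b, 7 without dark_14 b and 2 without dark_3 a. Their median was 3.19 in the dark step and 2.90 in the blue one. Leukocytes also express these genes. Of 20 leukocyte markers 3 passed the filter, with a median log2 difference of 1.22, and none was called. CD68 and CD14, markers of myeloid cells, had 3.15 and 1.41 CPM and 1.72 and 3.19 CPM in dark_14, against 0.793 and 0.288 CPM and 1.11 and 1.15 CPM in dark_3. PTPRC, the pan-leukocyte marker, had 0 and 0.767 CPM in dark_14 and none in dark_3. The part of leukocyte RNA in the class II values was not tested.

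The promoters of 3 called class II genes are shown because they share the Y box of class II promoters, searched as CTGATTGG on both strands after the class II values were seen. It was in 4 of the 8 tested members with an entry (50%) and in 3.97% of all promoters. The windows are from RefSeq on GRCh38.p14, 5′ to 3′ on the gene's strand, with the Y box in capitals.
HLA-DRB1 (chr6:32589799-32590098, minus strand): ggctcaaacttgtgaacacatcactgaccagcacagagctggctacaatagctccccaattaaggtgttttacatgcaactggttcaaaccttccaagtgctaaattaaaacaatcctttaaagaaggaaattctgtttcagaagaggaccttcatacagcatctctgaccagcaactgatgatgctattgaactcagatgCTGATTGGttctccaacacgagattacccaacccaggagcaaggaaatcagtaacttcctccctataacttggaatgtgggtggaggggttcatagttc
HLA-DMA (chr6:32953048-32953347, minus strand): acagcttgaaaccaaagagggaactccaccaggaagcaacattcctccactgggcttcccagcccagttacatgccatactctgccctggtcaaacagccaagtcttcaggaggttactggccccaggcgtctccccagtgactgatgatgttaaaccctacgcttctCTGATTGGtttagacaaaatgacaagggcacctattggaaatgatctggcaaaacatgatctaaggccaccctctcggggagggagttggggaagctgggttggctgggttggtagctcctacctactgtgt
HLA-DQB1 (chr6:32666608-32666907, minus strand): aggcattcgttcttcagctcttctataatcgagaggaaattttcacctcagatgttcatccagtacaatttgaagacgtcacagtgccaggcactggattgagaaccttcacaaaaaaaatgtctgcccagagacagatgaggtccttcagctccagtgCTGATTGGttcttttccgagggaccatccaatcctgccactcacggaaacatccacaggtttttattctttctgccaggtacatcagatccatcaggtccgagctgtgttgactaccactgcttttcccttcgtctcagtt
The Y box began 49 bases before the annotated start in HLA-DRB1, 82 bases in HLA-DMA and 91 bases in HLA-DQB1.

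Several targets and brakes of NF-kappaB rose. BIRC3, an inhibitor of apoptosis, had 212 and 156 CPM in dark_14, against 55.6 and 46.4 CPM in dark_3. NFKBIA, which holds NF-kappaB in the cytoplasm, had 349 and 297 CPM in dark_14, against 168 and 156 CPM in dark_3. NFKBIZ, the cofactor that opens antimicrobial genes such as LCN2, had 40.1 and 36.2 CPM in dark_14, against 19.8 and 17.4 CPM in dark_3. TNFAIP2, a gene induced by TNF, was the most abundant of the list, with 986 and 714 CPM in dark_14, against 284 and 281 CPM in dark_3. BIRC3, NFKBIA and NFKBIZ rose by 1.84 ± 0.27, 0.99 ± 0.16 and 1.02 ± 0.19 on the log2 scale and kept their calls in every fit that left out a library. Of 17 genes of the list 10 were called higher and 1 lower, with a median of 0.582. The lower one was the subunit NFKB1, at 48.1 and 50.7 CPM in dark_14, against 68.5 and 67.1 CPM in dark_3. The higher count was 3 without dark_14 a or without either dark_3 library. Of 13 tested genes of chemokines and prostaglandin synthesis 5 were higher and 1 lower. CCL2, a monocyte attractant, had 49.5 and 40.4 CPM in dark_14, against 13.6 and 11.8 CPM in dark_3. CXCL8, a neutrophil attractant, had 5.16 and 4.98 CPM in dark_14, against 1.74 and 2.3 CPM in dark_3. The 5 became 1 without dark_14 a or either dark_3 library. The lower one was PTGS1, a cyclooxygenase, at 3.15 and 2.3 CPM in dark_14, against 7.45 and 7.78 CPM in dark_3. The cytokine IL1B was not called (39 and 35.1 CPM in dark_14, against 34.6 and 29.8 CPM in dark_3), and in the interleukin-1 family only the receptor IL1R1 was, lower by -0.72 on the log2 scale.

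Keratins and differentiation genes changed piecemeal. The basal keratins KRT5 and KRT14 were not called. KRT5 had 962 and 1045 CPM in dark_14, against 1173 and 1080 CPM in dark_3, and KRT14 had 693 and 614 CPM in dark_14, against 672 and 727 CPM in dark_3, with adjusted p-values of 0.725 and 0.658 by edgeR. TP63, the master factor of stratified epithelium, had 52.7 and 53.1 CPM in dark_14, against 48.2 and 41.9 CPM in dark_3 (adjusted p = 0.3 by edgeR). KRT15 and KRT19, markers of less differentiated cells, rose by 0.67 and 0.66 on the log2 scale. In the same list KRT7 rose by 0.43, while KRT18 was called lower, with a log2 difference of -0.46. Of its 7 tested basal and simple keratins 3 were thus higher and 1 lower, with a median of -0.1. Among all genes 8.11% were called higher and 4.61% lower. The rises depended on single libraries. Leaving out 1 library spread the log2 difference of KRT15 over 0.343 to 0.917, of KRT19 over 0.496 to 0.782 and of KRT7 over 0.289 to 0.535. KRT19 had 3172 and 2635 CPM in dark_14, against 1796 and 1884 CPM in dark_3. KRT6A, a keratin of wounds and proliferating epidermis, fell to 312 and 348 CPM in dark_14, against 658 and 751 CPM in dark_3 (log2 difference -1.09 ± 0.25, adjusted p = 0.0191 by edgeR). Its partner genes KRT16 and KRT17 were not called. KRT1, an early marker of differentiation, had 70.2 and 22.1 CPM in dark_14, against 29.6 and 28.5 CPM in dark_3, so the dark_14 libraries lay on both sides of dark_3. Of the 20 identity genes 3 were higher, ITGB4 and TRIM29 among them, and 1 lower (KRT6A), with a median of 0.03; none of the 3 was called without dark_14 a or either dark_3 library.

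Of the 17 tested genes of the cornified envelope list 4 were higher and 3 lower, beside 8.11% and 4.61% of all genes. IVL, involucrin, had 225 and 164 CPM in dark_14, against 106 and 106 CPM in dark_3 (log2 difference 0.87 ± 0.15, adjusted p = 0.00128 by edgeR). TGM1, the transglutaminase that links envelope proteins, had 16.3 and 11.8 CPM in dark_14, against 6.02 and 4.18 CPM in dark_3. CASP14, the caspase of cornification, had 5.73 and 2.43 CPM in dark_14, against 0 and 0.144 CPM in dark_3. CNFN, cornifelin, rose by 1.24 on the log2 scale. The 3 lower members were FLG, PPL and KLK5, which encode filaggrin, periplakin and a desquamation protease. FLG had 36.9 and 42.3 CPM in dark_14, against 57.1 and 66.1 CPM in dark_3. The median of the 17 tested members was 0.077, and IVL, TGM1 and CASP14 kept their calls in every fit that left out a library. Among epidermal transcription factors 3 of 20 were higher, beside 8.11% of all genes: ELF3, KLF4 and BARX2, at 1.49, 0.84 and 0.59 on the log2 scale. Fewer of the list were called higher when any 1 of the 4 dark libraries was left out.

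In cell contacts, CLDN1, the main claudin of the epidermis, had 262 and 253 CPM in dark_14, against 167 and 163 CPM in dark_3. NECTIN4 and NECTIN1, adhesion proteins of adherens junctions, rose by 0.76 and 0.63 on the log2 scale, and ITGA2, a collagen receptor subunit, by 0.72. PKP2, CDH2 and TJP1, a desmosomal plaque protein, N-cadherin and the junction scaffold ZO-1, fell by 0.40, 0.36 and 0.44. GJA1, the gap junction protein connexin 43, fell by 0.81. CLDN1, NECTIN4 and ITGA2 kept their calls in every fit that left out a library.

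Matrix and signalling genes held several of the largest falls. THBS1, thrombospondin 1, fell to 114 and 93 CPM in dark_14, against 251 and 245 CPM in dark_3 (log2 difference -1.27 ± 0.20, adjusted p = 0.00216 by edgeR). CAV1, the coat protein of caveolae, had 420 and 490 CPM in dark_14, against 997 and 976 CPM in dark_3. SFRP1, a secreted Wnt inhibitor, had 5.73 and 6.9 CPM in dark_14, against 16.3 and 18.6 CPM in dark_3. DKK3, a relative of the Dickkopf inhibitors, fell by 1.07 on the log2 scale. SFRP1, THBS1 and DKK3 kept their calls in every fit that left out a library, and CAV1 lost its call without dark_14 a or either dark_3 library. BMP4 and BMP7, ligands of the bone morphogenetic family, fell by 0.81 and 0.85, while 7 of 25 genes of that list were higher, among them TGFBR3, BMP3 and the target ID1. That count was 1 without dark_14 a or either dark_3 library. SERPINB7 and SERPINB2, serpins of squamous epithelia, fell by 1.04 and 0.78.

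Genes of plasminogen activation and matrix turnover were among those called higher. PLAU, urokinase, had 77.3 and 67.5 CPM in dark_14, against 29.3 and 26.2 CPM in dark_3. TIMP3, an inhibitor of matrix proteases, had 203 and 93.6 CPM in dark_14, against 37.3 and 40.2 CPM in dark_3. Of 19 members of the list of matrix proteases and their inhibitors 6 were higher and none lower, with a median of 0.422; the higher count was 0 without dark_14 a or dark_3 a and 1 without dark_3 b. LOXL2, a lysyl oxidase of the matrix, had 24.3 and 20.7 CPM in dark_14, against 6.18 and 7.49 CPM in dark_3, and kept its call in every such fit. FN1, fibronectin, rose by 1.39 ± 0.37 on the log2 scale (adjusted p = 0.0439 by edgeR). TNC, tenascin C, fell by 1.47 on the log2 scale. The actin genes ACTB and ACTG1 fell by 0.74 and 0.47. MYH10, a nonmuscle myosin, rose by 1.25. VIM, vimentin, was called higher but lay near the floor, at 1.43 and 2.04 CPM in dark_14, against 0.476 and 0.144 CPM in dark_3.

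Some replication and mitosis genes fell by small amounts. MCM10, which helps to fire replication origins, had 61.6 and 85.7 CPM in dark_14, against 131 and 135 CPM in dark_3 (log2 difference -0.83 ± 0.18, adjusted p = 0.00933 by edgeR). GINS2, a part of the replicative helicase, had 38.7 and 43.2 CPM in dark_14, against 66.9 and 68.4 CPM in dark_3. RRM2, a subunit of ribonucleotide reductase, had 92.8 and 98.2 CPM in dark_14, against 142 and 143 CPM in dark_3. Of 32 G1/S genes none was higher and 12 were lower, with a median of -0.417 beside 4.61% called lower among all genes. Of 30 G2/M genes 8 were lower, with a median of -0.304; BUB1B, a spindle checkpoint kinase, had 68.7 and 86.6 CPM in dark_14, against 126 and 118 CPM in dark_3. MKI67, the proliferation antigen, was not called at 808 and 1047 CPM in dark_14, against 905 and 993 CPM in dark_3. TOP2A, topoisomerase II, did not pass either (adjusted p = 0.733 by edgeR). Of 26 genes of double-strand break and fork repair 4 were lower: EXO1, XRCC2, BLM and FANCI. The medians of the G1/S and G2/M genes in blue_14 over blue_3 were -0.334 and -0.273, with 8 and 2 called lower. Of the 12 G1/S calls 1 remained in number without dark_14 a or either dark_3 library, and 13 were made without dark_14 b. The 8 G2/M calls became 0 without dark_14 a or dark_3 a, 1 without dark_3 b and 12 without dark_14 b, and the 4 repair calls became 0, 0, 0 and 10 in these fits. GINS2 kept its call in every fit that left out a library.

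CDKN1A, the CDK inhibitor p21, moved the other way, with 116 and 82.5 CPM in dark_14, against 44.4 and 44.2 CPM in dark_3 (log2 difference 1.14 ± 0.16, adjusted p = 0.000288 by edgeR). BBC3, the death-promoting protein PUMA, had 26.9 and 19.9 CPM in dark_14, against 9.04 and 5.47 CPM in dark_3. TP53INP1, FAS and CDKN2B rose by 2.06, 0.92 and 0.68 on the log2 scale. These were the 5 of 21 members called, all higher; the count was 3 without dark_14 a or dark_3 b and 2 without dark_3 a. CDKN1A and BBC3 kept their calls in every fit that left out a library.

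**Figure D4:**
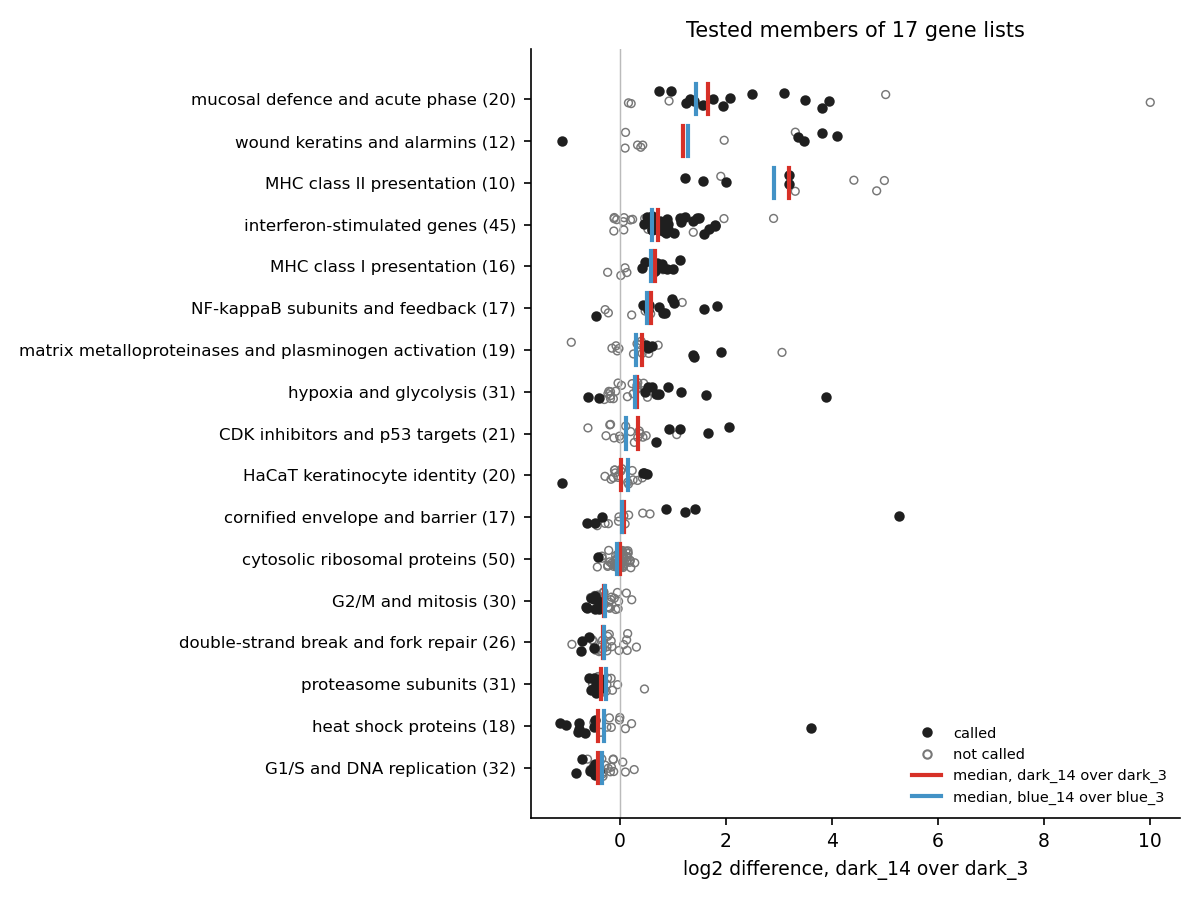
Each point is a tested member of 1 of 17 gene lists, placed at its log2 difference of dark_14 over dark_3 and filled where called; the red bar is the list's median and the blue bar the median of the same genes in blue_14 over blue_3. Medians run from 3.19 for MHC class II to -0.417 for G1/S genes, the red and blue bars lie on the same side of 0 in all lists but the ribosomal proteins, and the open point farthest right is PIGR, which has no count in dark_3, so its fitted place is no bound.

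Several chaperone genes fell. HSPA8, the constitutive HSP70, had 119 and 161 CPM in dark_14, against 312 and 302 CPM in dark_3 (log2 difference -1.12 ± 0.17, adjusted p = 0.000802 by edgeR). HSPH1, its exchange factor, had 286 and 380 CPM in dark_14, against 672 and 673 CPM in dark_3. HSPD1 and HSPE1, the paired mitochondrial chaperonins, fell by 0.65 and 0.77 on the log2 scale, and HSP90AA1 and HSP90AB1 by 0.76 and 0.48. Of 18 genes 8 were lower, with a median of -0.411 and of -0.305 in the blue step. The 1 higher member was CRYAB, a small heat shock protein also of glia, at 1.15 and 2.56 CPM in dark_14, against 0 and 0.288 CPM in dark_3; it differed by 0.11 in blue_14 over blue_3. The stress-inducible HSPA1A fell by 0.47, DNAJB1 was not called (adjusted p = 0.367 by edgeR), and BAG3 had 80.5 and 94.8 CPM in dark_14, against 88.9 and 87.4 CPM in dark_3. HSPA8 and HSPH1 kept their calls in every fit that left out a library. The count of 8 was 3 without dark_14 a, and 4 without either dark_3 library or with the neuron-restricted covariate.

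Of 31 proteasome subunits 10 were called lower and none higher, with a median of -0.353, and only 1 of the 31 lay above 0. PSMD11, of the regulatory lid, had 202 and 220 CPM in dark_14, against 317 and 296 CPM in dark_3. The count of this list called lower, which does not hold PSMB9, was 0 without dark_14 a, dark_3 a or dark_3 b and 12 without dark_14 b. Polyamine synthesis genes ODC1 and SRM fell by 1.28 and 0.83 on the log2 scale. SRM, spermidine synthase, had 99.4 and 105 CPM in dark_14, against 189 and 176 CPM in dark_3, and ODC1, ornithine decarboxylase, had 8.88 and 18.4 CPM in dark_14, against 37.1 and 35 CPM in dark_3. POLR1G, a subunit of RNA polymerase I, had 55.6 and 63.9 CPM in dark_14, against 121 and 116 CPM in dark_3. Of 50 cytosolic ribosomal proteins 1, RPL23, was lower, and their median was 0.01.

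Metabolic lists changed in part. Of 31 hypoxia and glycolysis genes 9 were higher and 2 lower. The higher ones were mainly targets of hypoxia signalling: NDRG1 had 137 and 82.9 CPM in dark_14, against 47.2 and 49.5 CPM in dark_3, and VEGFA, the endothelial growth factor, had 52.1 and 42.5 CPM in dark_14, against 29.2 and 26.8 CPM in dark_3. The lower ones were the glycolytic enzymes ENO1 and TPI1, at -0.60 and -0.40 on the log2 scale. The higher count was 1 without dark_14 a or dark_3 b and 2 without dark_3 a. SCD, the desaturase of fatty acid synthesis, had 973 and 1007 CPM in dark_14, against 572 and 583 CPM in dark_3 (adjusted p = 0.000175 by edgeR), and 4 of 18 genes of its list were higher; this was 1 without any 1 of the 4 dark libraries. Of 24 cholesterol synthesis genes 1 was. PSAP, a lysosomal sphingolipid activator, had 714 and 559 CPM in dark_14, against 345 and 347 CPM in dark_3, and 5 of 30 lysosome and autophagy genes were higher, or 1 without dark_14 a or either dark_3 library. DDIT4, an inhibitor of mTOR signalling induced by stress, had 221 and 131 CPM in dark_14, against 57.2 and 53.6 CPM in dark_3. NQO1, a quinone reductase under NRF2, had 57.9 and 83.4 CPM in dark_14, against 138 and 142 CPM in dark_3; it differed by -0.19 in blue_14 over blue_3. BHLHE41, a repressor of the circadian clock, had 97.4 and 80.7 CPM in dark_14, against 51.1 and 47.2 CPM in dark_3. SCD, PSAP, SRM, NQO1 and BHLHE41 kept their calls in every fit that left out a library.

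Some called genes had the opposite sign in the irradiated series. SCGB1A1, a secretoglobin best known from airway epithelium, had 2073 and 1135 CPM in dark_14, against 425 and 424 CPM in dark_3 (log2 difference 1.92 ± 0.25, adjusted p = 0.00139 by edgeR). Its mean was 824 CPM in blue_14 and 860 CPM in blue_3. IVL averaged 161 CPM in blue_14 and 178 CPM in blue_3, and FLG 49.7 CPM in blue_14 and 34.5 CPM in blue_3. MAP1B, a microtubule protein of neurons that is on no marker list here, had 33.8 and 39.6 CPM in dark_14, against 3.65 and 6.19 CPM in dark_3, and its means were 14.4 CPM in blue_14 and 19.9 CPM in blue_3. PRNP, the prion protein, fell by 0.69 and differed by 0.01 in the irradiated cultures. PSAT1 and SLC3A2, of serine synthesis and amino acid transport, fell by 0.68 and 0.66 in the dark and differed by 0.21 and 0.12 in the irradiated cultures. Sign alone does not show a difference between the steps. When the difference itself was tested, 5 of 12878 genes passed (0.0388%): the neuronal genes SYT1, CELF4, NEFM and MAP2, and MRFAP1L1. MRFAP1L1 had 200 and 182 CPM in dark_14, against 119 and 119 CPM in dark_3, and its means were 136 CPM in blue_14 and 168 CPM in blue_3.

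Changes were also tied to position on the chromosomes, a pattern noticed after the values were seen and described over protein-coding genes of at least 10 CPM. Genes on chromosome 10 beyond 60 Mb (GRCh38) were higher as a block. Of 247 such genes 51 were called higher and none lower, with a median log2 difference of 0.151, while the 103 genes before that point had a median of -0.073 with 9 higher and 5 lower. On chromosome 13, 3 of 157 genes were called higher and 32 lower, with a median of -0.193, and on chromosome 7 the counts were 20 and 53 of 408 with a median of -0.122. The 7813 genes of all other chromosomes had a median of -0.026, with 639 higher and 468 lower. The same regions moved in blue_14 over blue_3, with medians of 0.173, -0.158 and -0.163 for distal chromosome 10, chromosome 13 and chromosome 7. Some windows of 20 Mb on other chromosomes shifted by similar amounts. Chromosome 15 from 20 to 40 Mb had a dark median of -0.223 and a blue one of -0.063. On chromosome 8 from 80 to 100 Mb these were -0.173 and -0.129. An upward example was chromosome 2 from 200 to 220 Mb, at 0.11 and 0.056.

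Single libraries show the blocks too. Relative to the dark_3 mean and to all genes, the median log2 level of distal chromosome 10 was 0.142 and 0.183 in dark_14, against -0.001 and 0.001 in dark_3. It was 0.173 and 0.166 in blue_14, against -0.007 and -0.001 in blue_3, and 0.244 and 0.235 in dark_42. Chromosome 13 stood at -0.207 and -0.121 in dark_14, against 0.005 and -0.005 in dark_3, and was closer to dark_3 in dark_42, at -0.056 and -0.097. Chromosome 7 stood at -0.094 and -0.089 in dark_14, against 0.004 and -0.004 in dark_3, and at -0.085 and -0.087 in dark_42. For all 3 regions the dark_14 libraries lay apart from the dark_3 libraries. DNA copy number was not measured.

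**Figure D5:**
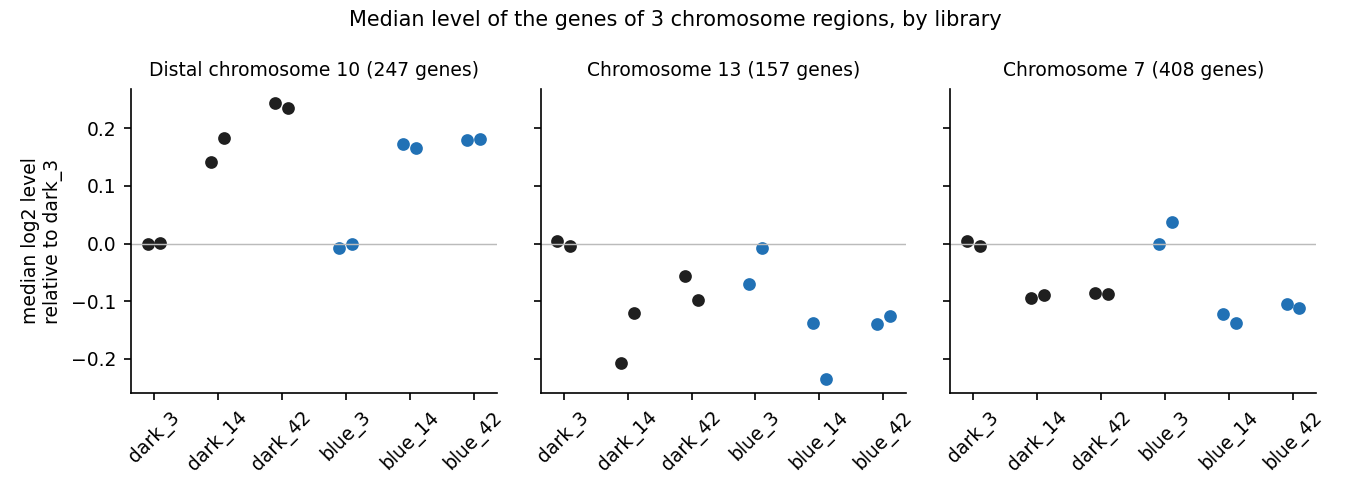
Points give, for each library, the median over genes of the log2 level (log2 of CPM plus 1) relative to the dark_3 mean, after subtracting the median of all genes, for distal chromosome 10, chromosome 13 and chromosome 7. Distal chromosome 10 is at 0.142 and 0.183 in dark_14 and at -0.001 and 0.001 in dark_3, and it is at 0.173 and 0.166 in blue_14.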

How the data were processed

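QuantSeq 3' libraries of HaCaT total RNA were made, per the labels' protocols. The authors deposited raw counts per gene for 12 libraries; STAR, featureCounts and GRCh38 are named in the submitters' processing notes, while the annotation release and the strand and trimming settings were not found in any source used here. Antisense or overlapping genes and near-identical copies are therefore uncertain. Of 45372 rows 22754 held a count and 12878 passed edgeR's filter (minimum count 10). The 6 groups of 2 were fitted together (edgeR 4.0.16, R 4.3.3, TMM scaling, robust quasi-likelihood test, 6 residual degrees of freedom), with p-values adjusted over the 12878 genes by the Benjamini-Hochberg method and a call at an adjusted p under 0.05. The script was tested on simulated data. Standard errors come from the quasi-likelihood fit and carry its estimate of the spread between libraries. Floors (3 counts) cover counting error only. The members and gene lists were chosen with earlier results of these data known.

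Named genes are the 15 largest called changes each way of at least 10 CPM with the same sign in blue_14 over blue_3, the 8 largest each way with the opposite sign, the 8 most abundant neuronal and erythroid genes, up to 4 called genes per list and a set of 16 always named; other list members were picked as examples after their values were seen. Alternatives were RLE scaling, DESeq2 1.42.0, other filters, non-robust estimation, thinning, covariates, other-cell genes taken out, a replicate block, the compared libraries alone, and each library left out. The letters a and b were not used as pairs in the main fit. The a-to-b deviations of dark_14 and dark_3 correlated by r = -0.0117 across genes. Other pairs of groups ranged from -0.252 (dark_14 with dark_42) to 0.296 (dark_42 with blue_42). Gene positions are from GENCODE on GRCh38; promoters are from RefSeq (GRCh38.p14). A few genes of the lists are not reported here by name.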

Additional observations from a re-analysis of the deposited data

Results flagged for a closer look

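For 5 genes the change in the dark cultures differed from that in the irradiated cultures when the difference itself was tested (edgeR's quasi-likelihood test, adjusted over all genes). Log2 values below are the change of dark_14 over dark_3 minus the change of blue_14 over blue_3. SYT1 differed by 3.443 (adjusted p = 0.00183), with means of 20.6 CPM in dark_14 and 2.11 CPM in dark_3, against 7.94 CPM in blue_14 and 9.21 CPM in blue_3. CELF4, an RNA-binding protein of neurons, differed by 4.878 (adjusted p = 0.0211) and NEFM, a neurofilament subunit, by 4.553 (adjusted p = 0.0336). MAP2, a microtubule protein of dendrites, differed by 1.265 (adjusted p = 0.0336), with 29.5 and 30.7 CPM in dark_14, 21.6 and 21 CPM in dark_3, 20.4 and 20.1 CPM in blue_14 and 32.5 and 36.4 CPM in blue_3. All 4 are genes of neurons. The fifth, MRFAP1L1, differed by 0.990 (adjusted p = 0.0211), is on no marker list here, and moved up in both dark_14 libraries and down in both blue_14 libraries relative to the earlier harvest.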

How the results depend on the processing

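The call counts of dark_14 over dark_3 kept within 1.5 times of 1638 with RLE scaling, DESeq2, other filters, non-robust estimation, thinning, other-cell genes taken out and the replicate block, which gave 1568 and moved no count past that limit. They moved with 3 settings: 2812 with the whole neuronal list as covariate, 408 with its neuron-restricted members (chosen after seeing the data) and 2651 with the compared libraries alone. The higher genes were 271 with the restricted covariate. The lower genes were 1308 and 137 with the whole and restricted covariates, 1011 with no low-count filter and 1205 with the compared libraries alone. In the irradiated step 1348 were called without a filter, 21 with the whole covariate and 503 with the compared libraries alone. The 5 genes whose change differed between dark and irradiated steps became 15 with DESeq2, 115 without a filter, 3 with a 5 CPM filter, 8 with non-robust estimation, 1 after thinning, 201 with the whole covariate, 12 with the compared libraries alone, and 0 with the restricted covariate or with other-cell genes taken out. SYT1, CELF4, NEFM and MAP2 are on the neuronal list, so taking out other-cell genes removed them before the test. CELF4 and NEFM are also members of the restricted covariate. Leaving out 1 library gave 336 to 1987 calls, 265 to 1201 higher, 71 to 933 lower, 110 to 1076 in the irradiated step and 1 to 38 for the difference. Among all 1638 called genes 1592 kept their sign with the restricted covariate. Among the named genes, signs turned for MAP1B, which was called, and for some that were not: with the restricted covariate, to -0.094 for MAP1B, -0.156 for VSNL1, -0.104 for KRT17, -0.093 for EGFR and -0.437 for ISG15, and with the whole covariate to -0.001 for EGFR and -0.017 for ISG15. Leaving out 1 library spread the log2 difference of EGFR over -0.011 to 0.082, of MKI67 over -0.236 to 0.119, of KRT1 over -0.417 to 1.268 and of KRT10 over -0.181 to 0.325. The cause was not tested. Depth limits genes near the floor, above all in dark_14 a, the shallowest of the 4 dark libraries compared.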

Other observations

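Several stress and housekeeping lists held few called genes in dark_14 over dark_3, although some leaned to one side. No immediate early gene of 20 tested was called, nor any of 6 metallothioneins or 10 haem synthesis genes, with medians of 0.22, 0.09 and -0.169. Of 15 transcripts encoded by the mitochondrial genome 1 was higher, MT-ND4, a subunit of respiratory complex I, beside 8.11% of all genes. The median of the 15 was 0.199, with 12 above 0. Of 40 nuclear respiratory chain genes 3 were lower, NDUFC2, ATP5MC1 and ATP5MC3, beside 4.61% of all genes. The median of the 40 was -0.126, with 8 above 0. Of 27 ATF4 and unfolded protein response genes DDIT4 was higher and SLC3A2 and PSAT1 were lower, with a median of -0.158 and 10 above 0. Among 27 NRF2 targets and antioxidant genes GPX2, a glutathione peroxidase, was higher and NQO1, GCLC and GPX1 were lower. Their list had a median of -0.197, with 7 of the 27 above 0. Of 22 EGFR pathway genes 2, the ligand HBEGF and the ERK phosphatase DUSP5, were higher, a share near the 8.11% of all genes, and neither was called without dark_14 a. Of 17 Wnt pathway genes 2 were higher, the ligands WNT4 and WNT10A, and 2 lower, with a median of 0.097, beside 8.11% higher and 4.61% lower among all genes; neither ligand was called without dark_14 a or dark_3 a.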
